A study of Caenorhabditis elegans with 27 samples.

Results

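Propionate, a short-chain fatty acid left from the breakdown of branched-chain amino acids and odd-chain fatty acids, is removed in Caenorhabditis elegans by a pair of routes, and 8 genes encoding enzymes of these routes are described here across 9 RNAi feeding groups. The genes were chosen by name. acdh-1, ech-6, hach-1 and alh-8 belong to the propionate shunt, and pcca-1, pccb-1, mce-1 and mmcm-1 belong to the route that depends on vitamin B12. They are 8 of the 46738 genes in the count table and 8 of the 16435 that passed a filter on low counts. The symbol column held 7 of the names, and hach-1, listed there as F09F7.4, was matched by its gene ID.

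In the B12-dependent route, propionyl-CoA is carboxylated, epimerised and rearranged to succinyl-CoA, which enters the tricarboxylic acid cycle. The rearrangement needs a form of vitamin B12 as cofactor. When that route is slow, worms use the shunt, which oxidises propionyl-CoA through toxic intermediates to acetyl-CoA. acdh-1, the first gene of the shunt, is strongly lowered by dietary B12 and is expressed mainly in the intestine, so it has served as a reporter of B12 status in this animal.

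The libraries were made from poly(A) RNA of whole N2 worms, the wild-type strain, which carry an hsp-6::GFP reporter of mitochondrial stress per the series' design text. All worms ate E. coli HT115 carrying RNAi clones from the egg on, at 20 °C for 2 days, and were collected as L4 larvae or young adults, with 3 libraries in each group. The single-clone groups were ev (empty vector), cbp-1 and atfs-1, for which the labels give no clone share, and cco-1 and mrps-5, each at 50% with 50% ev. The mixtures were cco-1+cbp-1 and mrps-5+cbp-1, each with 50% of the mitochondrial clone, 25% of cbp-1 and 25% of ev, and cco-1+atfs-1 and mrps-5+atfs-1, each with 50% of both clones. cco-1 encodes a subunit of cytochrome c oxidase, mrps-5 a small-subunit protein of mitochondrial ribosomes, cbp-1 the worm homolog of the histone acetyltransferases CBP and p300, and atfs-1 a transcription factor of the mitochondrial unfolded protein response. The series asks what CBP/p300 does in the response to mitochondrial stress. The labels name no propionate or B12 supplement in any group. They do not say that replicates came from separate cultures, so a p-value speaks to variation among these libraries alone, and that variation may be technical.

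On WBcel235, acdh-1 (WBGene00016943) lies at I:6497436-6499560 on the plus strand with 5 exons, ech-6 (WBGene00001155) at III:9751552-9752883 on the minus strand with 4 exons, hach-1 (WBGene00017301) at III:5555450-5557318 on the plus strand with 5 exons, and alh-8 (WBGene00000114) at II:11729055-11731198 on the plus strand with 6 exons. For the B12-dependent route, pcca-1 (WBGene00017864) lies at X:7657542-7660986 on the minus strand with 7 exons, pccb-1 (WBGene00018701) at X:3089549-3092437 on the plus strand with 5 exons, mce-1 (WBGene00008415) at I:7582106-7583333 on the plus strand with 3 exons, and mmcm-1 (WBGene00014202) at III:3903185-3907687 on the minus strand with 6 exons. Exons of alh-8 overlap those of F13D12.8 on the other strand by 34 bases, and exons of pccb-1 overlap those of wrt-2 by 43 bases. The median count of these neighbours over the libraries was 72 for F13D12.8 and 75 for wrt-2.

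Gene counts summed to 20672073 to 30938572 per library, with a median of 27527028. The libraries fell into 2 sets along an axis of 458 genes that separates the first atfs-1 library from the other atfs-1 libraries, and the labels name no batch that would match. The first set holds 7 libraries (ev, cbp-1 and the first of atfs-1) with scores of 0.541 to 0.708, and the second holds the other 20, with scores of -0.387 to -0.125. Comparisons of cco-1 or mrps-5 with ev cross the sets, the atfs-1 group is split between them, and cbp-1 against ev and every comparison among cco-1, mrps-5 and the mixtures lie within one set. Of the RNAi targets, cco-1 fell from 302 ± 8.62 CPM in ev to 169 ± 1.87 in the cco-1 group, mrps-5 fell from 104.5 ± 3.59 to 83.2 ± 3.44 in its own, and cbp-1 fell from 268.6 ± 10.5 to 208 ± 2.23 in its own. The cco-1 transcript was also called lower in mrps-5 (-0.49), cbp-1 (-0.45) and atfs-1 (-0.38) against ev, in cco-1+cbp-1 against cco-1 (-0.55) and in mrps-5+cbp-1 against mrps-5 (-0.44). The cco-1, mrps-5 and atfs-1 comparisons with ev involve both library sets. Within the split atfs-1 group the cco-1 transcript ran from 191 to 309 CPM. Inside the second set, mrps-5 against cco-1 gave 0.34 ± 0.12 for the cco-1 transcript (edgeR's quasi-likelihood test, adjusted p = 0.0715), which was not called. For the mrps-5 transcript it gave -0.36 ± 0.04. The part of the sets in these falls was not tested. The cbp-1 transcript fell in cco-1+cbp-1 (-0.24) and mrps-5+cbp-1 (-0.22) against their mitochondrial clone, but its levels there, 275.5 ± 1.59 and 274.6 ± 9.04 CPM, were not below that of ev. That comparison with ev crosses the library sets, and within the split atfs-1 group the cbp-1 transcript ran from 252 to 339 CPM. The atfs-1 transcript was not lower in libraries labelled atfs-1: it stood at 77.7 ± 1.06 CPM in ev and 90.5 ± 4.05 in the atfs-1 group, at 99.1 ± 0.736 in cco-1 and 112.6 ± 4.74 in cco-1+atfs-1, and at 99.6 ± 2.79 in mrps-5 and 103.0 ± 2.18 in mrps-5+atfs-1. Marker genes of intestine, hypodermis, body wall muscle, neurons, germline, sperm and yolk were all above 0 in every library. Their summed levels ranged over the libraries from 643 to 1672 CPM for intestine, 1099.5 to 1747 for hypodermis, 4697 to 6499 for muscle, 208 to 281 for neurons, 2905 to 3558 for germline, 44.0 to 73.2 for sperm and 14705 to 74398 for yolk.

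Levels are given as CPM, counts scaled to library size with TMM factors, with the mean ± SD of 3 libraries for each group. Changes are log2 fold changes from edgeR's quasi-likelihood test over all 27 libraries, ± an SE derived from its F statistic. A gene was called when its p, Benjamini-Hochberg adjusted over the 16435 genes tested, was below 0.05. Every adjusted p below comes from that test unless another setting is named. "Rose" and "fell" are used for called genes. Statements that libraries did not overlap describe the values of that gene alone. The share of all genes tested without overlap is not given, so such statements do not set these genes apart.

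Per length, all 8 genes were among the more abundant transcripts, between the 87.3 and 98.3 percentiles of the genes tested. Mean RPKM over all libraries was 375 for alh-8, the malonate semialdehyde dehydrogenase that ends the shunt, and 236 for ech-6, the enoyl-CoA hydratase of its second step. acdh-1, the acyl-CoA dehydrogenase of the first step, had 89.5 RPKM, and hach-1, the 3-hydroxypropionyl-CoA hydrolase, had 76.5. In the B12-dependent route, pccb-1 and pcca-1, the beta and alpha subunits of propionyl-CoA carboxylase, had 191 and 129.6 RPKM, mmcm-1, the methylmalonyl-CoA mutase, had 87.1, and mce-1, the methylmalonyl-CoA epimerase, had 62.4. The genes differed far more in how much their levels moved. Between its highest and lowest group mean, acdh-1 spanned 3.49 on the log2 CPM scale, ech-6 1.33, alh-8 1.05 and hach-1 0.80, whereas pcca-1 spanned 0.48, mce-1 0.41, pccb-1 0.40 and mmcm-1 0.12.

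**Figure D1:**
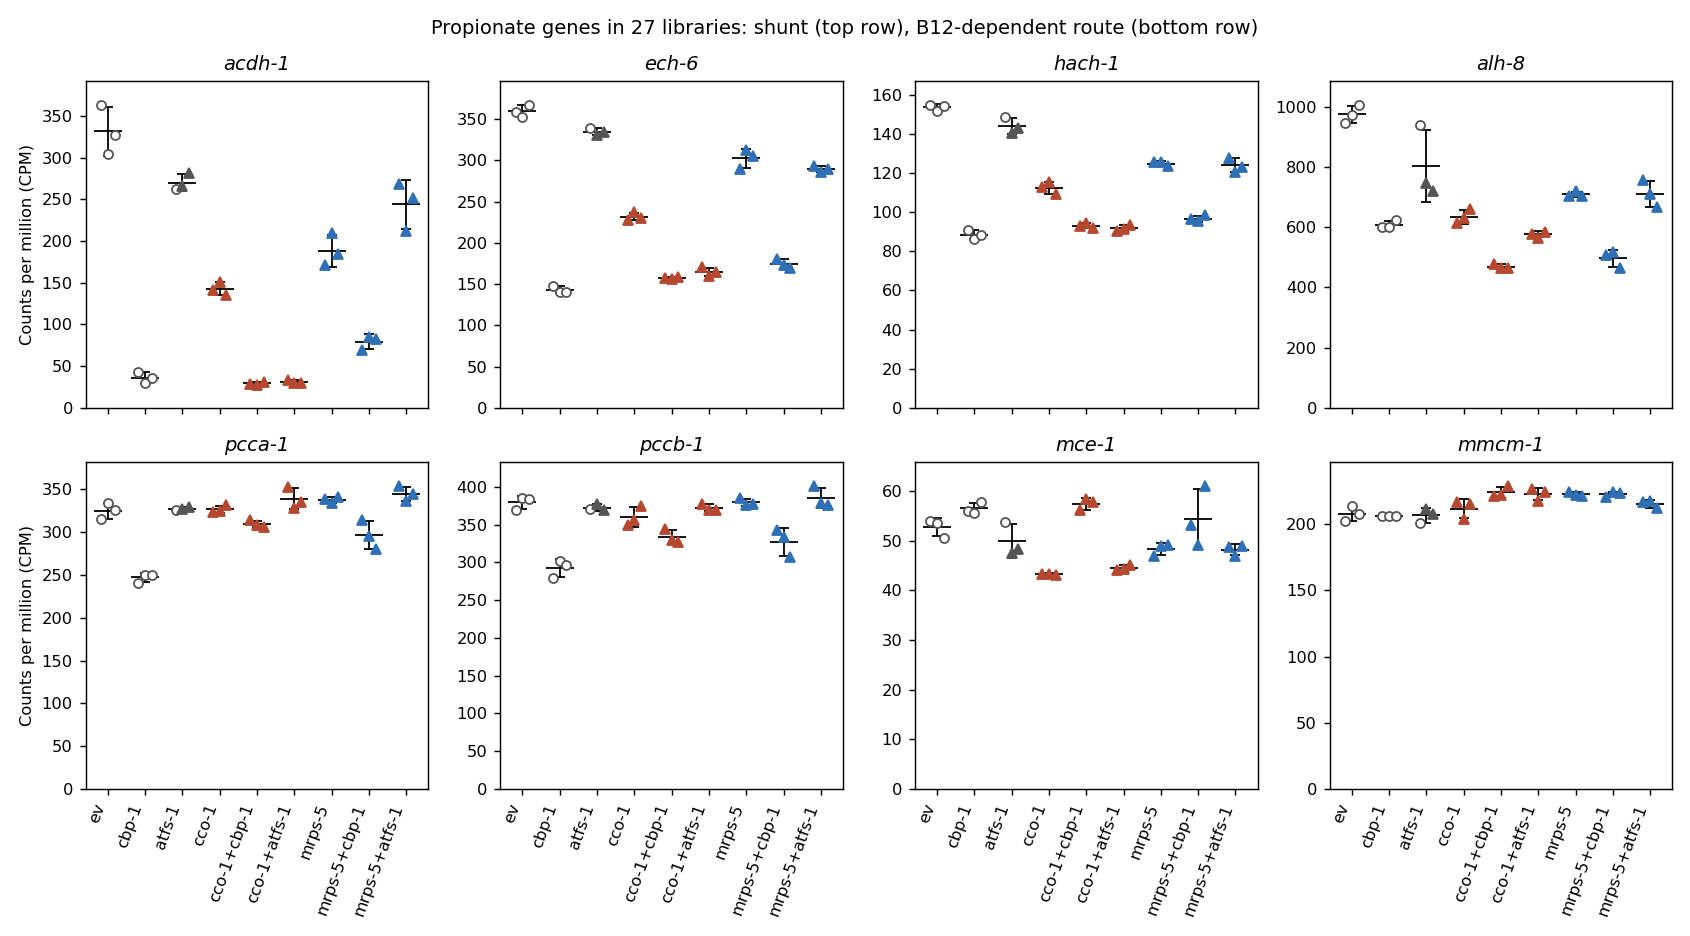
CPM (linear axis from 0) of the 8 genes in each of the 27 libraries, by RNAi group; open circles are libraries of the first set, filled triangles those of the second, and the bar is the mean ± SD of 3 libraries. The top row holds the shunt genes and the bottom row the B12-dependent route; acdh-1 lies between 28.0 and 363 CPM, while mmcm-1 stays between 200.6 and 229.

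acdh-1 was highest in ev, at 362.7, 304.5 and 327.4 CPM in the 3 libraries (332 ± 29.3). It stood at 262.0, 266.3 and 281.3 CPM in atfs-1 (269.9 ± 10.12) and at 268.3, 211.6 and 252.0 in mrps-5+atfs-1 (244 ± 29.2), and these groups overlap. Next came mrps-5, at 171.7, 209.2 and 184.0 CPM (188 ± 19.1), whose highest library lay just under the lowest of mrps-5+atfs-1. The cco-1 group had 141.5, 151.4 and 135.7 CPM (143 ± 7.92), below every mrps-5 library. A step down, mrps-5+cbp-1 had 68.8, 85.3 and 83.1 CPM (79.1 ± 8.95), apart from its neighbours on both sides. At the bottom of the order, cbp-1 had 42.8, 30.2 and 35.7 CPM (36.2 ± 6.31), cco-1+atfs-1 had 33.3, 29.4 and 29.9 (30.9 ± 2.13), and cco-1+cbp-1 had 29.1, 28.0 and 31.4 (29.5 ± 1.77). Neighbours among these lowest 3 groups overlap, so their order is not resolved.

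With the mitochondrial clones alone, the shunt fell. In cco-1 against ev, acdh-1 fell by 1.22 ± 0.11 on the log2 scale (adjusted p = 1.94e-08), to 0.431 times its ev level. ech-6 went from 358.9, 352.4 and 366.9 CPM in ev to 228.1, 237.2 and 230.7 in cco-1, a log2 change of -0.63 ± 0.03 (adjusted p = 1.05e-18). hach-1 went from 154.6, 151.8 and 154.3 CPM to 112.7, 115.5 and 109.3, a log2 change of -0.45 ± 0.03 (adjusted p = 1.37e-14). No cco-1 library reached an ev library for these genes, and the same held for alh-8, which went from 945.7, 972.5 and 1005.2 CPM to 615.0, 630.3 and 660.6 (log2 change -0.62 ± 0.06). In the B12-dependent route, mce-1 fell by 0.28 ± 0.05, while pcca-1 (0.01 ± 0.04), pccb-1 (-0.07 ± 0.04) and mmcm-1 (0.03 ± 0.03) were not called. Thus 5 of the 8 genes fell and none rose, where 45.3% of all genes tested were called. The median log2 change was -0.37 over the 8 genes and 0.01 over all genes tested. All 4 yolk protein genes fell too, with a median of -1.75, and 3 of 8 intestinal markers rose and 4 fell, with a median of -0.04; their part was not tested. This comparison crosses the library sets. Here and below, a term for the set rests on the first atfs-1 library against the other atfs-1 libraries, as no other group is split. Whether the same shift holds for the other groups was not tested. With that term acdh-1 was at -1.28, ech-6 at -0.60 and hach-1 at -0.38. alh-8 came to -0.26 (adjusted p = 0.00188), and mce-1 was no longer called (-0.12, adjusted p = 0.372).

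In mrps-5 against ev the same 4 shunt genes fell, by smaller amounts. acdh-1 had a log2 change of -0.82 ± 0.11 (adjusted p = 6.54e-06), ech-6 of -0.25 ± 0.03 with 289.7, 312.4 and 305.6 CPM in mrps-5, hach-1 of -0.30 ± 0.03 with 125.5, 125.5 and 123.4 CPM, and alh-8 of -0.46 ± 0.06 with 704.6, 719.3 and 704.9 CPM. In each of these genes the mrps-5 and ev libraries did not overlap. Of the B12-dependent route, mce-1 fell by 0.13 ± 0.05 (adjusted p = 0.0493) and mmcm-1 rose by 0.10 ± 0.03 (adjusted p = 0.0163). Without any one of ev library 1 or 2 or mrps-5 library 1, 2 or 3 the mce-1 call was lost (adjusted p = 0.0699 to 0.176), and without ev library 1 or mrps-5 library 1 the mmcm-1 call was lost (adjusted p = 0.0979 and 0.0569). In all 1 of 8 genes rose and 5 fell, beside 37.9% of all genes called, with a median log2 change of -0.19 against 0.003 over all genes. The 4 yolk genes fell with a median of -0.24, and their part was not tested. With a term for the library set, acdh-1 (-0.88), ech-6 (-0.22) and hach-1 (-0.23) were still called. alh-8 (-0.10, adjusted p = 0.39), mmcm-1 (0.03, adjusted p = 0.797) and mce-1, whose direction turned (0.04, adjusted p = 0.849), were not.

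**Figure D2:**
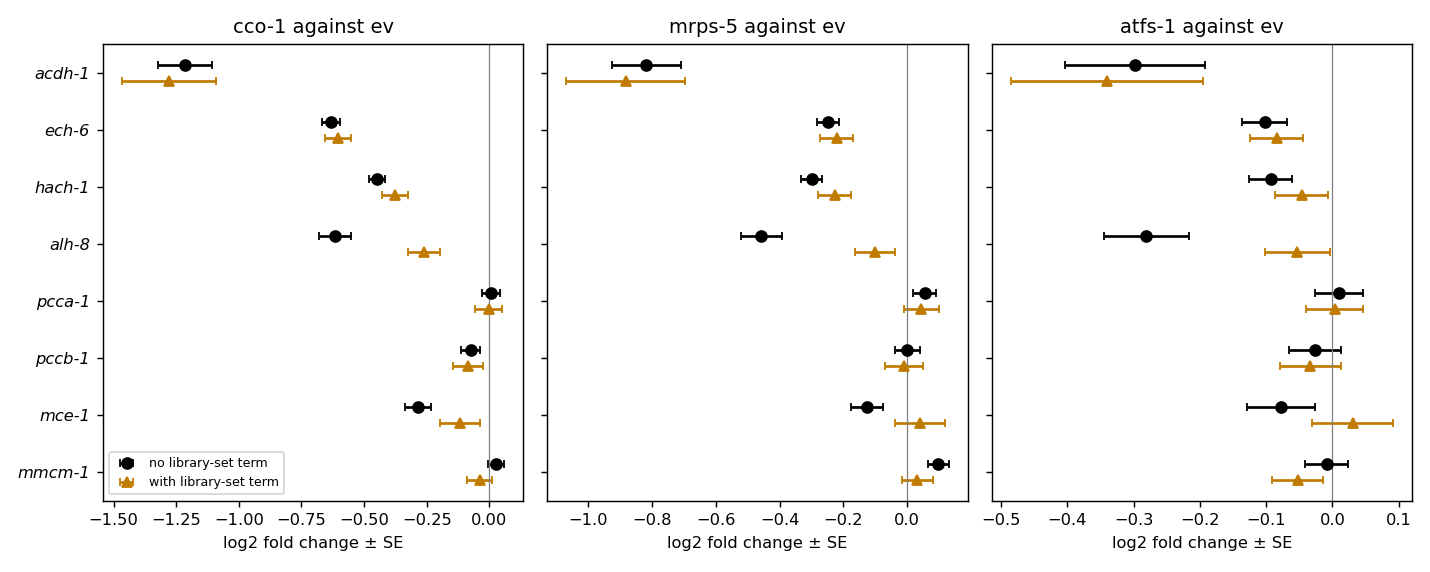
Log2 change ± SE of each of the 8 genes in cco-1, mrps-5 and atfs-1 against ev, fitted without and with a term for the library set. acdh-1 stays at -1.22 and -1.28 in cco-1 against ev, whereas alh-8 goes from -0.62 to -0.26 there and from -0.46 to -0.10 in mrps-5 against ev.

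Set against each other within one library set, the mitochondrial clones left acdh-1 and ech-6 at different levels. acdh-1 was higher in mrps-5 than in cco-1 by 0.40 ± 0.11 (adjusted p = 0.0189), ech-6 by 0.38 ± 0.03 (adjusted p = 1.41e-11), hach-1 by 0.15 ± 0.03 (adjusted p = 0.00109) and mce-1 by 0.16 ± 0.05 (adjusted p = 0.0399), with no overlap of libraries in any of these genes. These 4 of 8 genes were called, all higher, beside 11.8% of all genes. The 4 yolk genes were higher in mrps-5 as well, with a median of 1.51, and their part was not tested. The acdh-1 call was lost without cco-1 library 1 or 3 or mrps-5 library 2 (adjusted p = 0.0627, 0.0909 and 0.126), and when the fit held only these groups (adjusted p = 0.0637). For mce-1 it was lost without any cco-1 library or mrps-5 library 2 or 3 (adjusted p = 0.0936 to 0.141). alh-8 (0.16 ± 0.06, adjusted p = 0.133) was called with no filter (adjusted p = 0.00467) and with only the groups compared (adjusted p = 2.25e-05). It was also called with a term for the library set (adjusted p = 5.80e-04) and when the first atfs-1 library was left out of the shared fit (adjusted p = 5.83e-04).

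Among the comparisons tested, the change of acdh-1 was largest in cbp-1 against ev. There acdh-1 fell by 3.19 ± 0.12 (adjusted p = 6.98e-15), to 0.110 times its ev level, and its highest cbp-1 library, at 42.8 CPM, lay far under its lowest ev library, at 304.5 CPM. ech-6 had 147.9, 140.7 and 141.0 CPM and fell by 1.33 ± 0.04 (adjusted p = 6.62e-30). hach-1 had 90.7, 86.3 and 88.5 CPM and fell by 0.79 ± 0.03, and alh-8 had 601.6, 601.1 and 623.2 CPM and fell by 0.68 ± 0.06. No cbp-1 library reached an ev library in these 4 genes. Both carboxylase subunits fell as well: pcca-1 went from 315.7, 334.0 and 325.3 CPM in ev to 240.9, 250.2 and 250.1 (-0.40 ± 0.04, adjusted p = 2.85e-12), and pccb-1 from 368.9, 385.4 and 383.2 to 279.4, 301.4 and 296.1 (-0.38 ± 0.04, adjusted p = 7.02e-11). mce-1 had 53.9, 53.6 and 50.6 CPM in ev and 56.1, 55.7 and 57.8 in cbp-1 (0.10 ± 0.05, adjusted p = 0.0833), and mmcm-1 had 202.6, 213.8 and 207.8 and then 206.6, 206.0 and 206.3 (-0.01 ± 0.03, adjusted p = 0.763). mce-1 was called with upper-quartile scaling (adjusted p = 0.0235) and with only the groups compared (adjusted p = 0.02535). It was also called with the library-set term (adjusted p = 0.0362) and when the first atfs-1 library was left out of the shared fit (adjusted p = 0.0363). So 6 of 8 genes fell, 0 rose and 2 were not called, where 58.7% of all genes were called; the medians were -0.54 over the 8 genes and 0.02 over all genes.

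Other genes of the same tissue and stage moved in the same comparison. Of 8 intestinal marker genes 5 fell and 1 rose, with a median log2 change of -0.58, and their summed level was 1276 to 1322 CPM in ev and 790 to 817 in cbp-1. All 4 yolk protein genes, which the intestine of young adults transcribes, fell, with a median of -2.72. Markers of other tissues moved too. Of 5 muscle markers 4 fell, of 6 germline markers 4 fell and 1 rose, and of 6 hypodermis markers 2 fell and 1 rose. Of 5 neuronal and 4 sperm markers, 2 each rose and 0 fell. The part of all these genes in the fall of the propionate genes was not tested. In whole-worm RNA, fewer cells of a type and less RNA per cell cannot be told apart.

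In atfs-1 against ev the changes were small. acdh-1 was at -0.30 ± 0.11 with a 95% interval of -0.52 to -0.08 and was not called (adjusted p = 0.0760), although the 3 atfs-1 libraries lay below the 3 ev libraries. It was called with DESeq2 (adjusted p = 0.0421), with no filter (adjusted p = 9.70e-10) and with a filter at 5 CPM in 3 libraries (adjusted p = 0.0486). alh-8 fell by 0.28 ± 0.06 (adjusted p = 0.0101) and ech-6 by 0.10 ± 0.03 (adjusted p = 0.0479), so that 0 rose and 2 of 8 fell, beside 10.8% of all genes. The alh-8 values split with the library sets, at 939.2 CPM in the first atfs-1 library and 745.5 and 721.7 in the others. With a term for the set, which leaves 1 atfs-1 library against 3 of ev, alh-8 was at -0.05 (adjusted p = 0.964). The alh-8 call was also lost without ev library 3 or atfs-1 library 2 or 3 (adjusted p = 0.0580 to 0.130), and the ech-6 call without any ev library or atfs-1 library 2 or 3 (adjusted p = 0.0639 to 0.238). Without the first atfs-1 library, hach-1 (-0.12, adjusted p = 0.00292) and mce-1 (-0.14, adjusted p = 0.0317) were called too. DESeq2 (adjusted p = 0.0253) and the 5 CPM filter (adjusted p = 0.0335) also called hach-1.

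Adding cbp-1 to cco-1, at an equal share of the cco-1 clone, took the shunt down further. In cco-1+cbp-1 against cco-1, acdh-1 fell by 2.28 ± 0.12 (adjusted p = 3.05e-12), from a lowest library of 135.7 CPM to a highest of 31.4. ech-6 fell by 0.56 ± 0.03 to 157.8, 156.8 and 158.6 CPM, alh-8 by 0.44 ± 0.06 to 478.8, 464.4 and 464.4, and hach-1 by 0.27 ± 0.03 to 92.7, 94.7 and 92.0. mce-1 moved the other way: it rose from 43.3, 43.4 and 43.1 CPM to 56.2, 58.5 and 57.8, by 0.41 ± 0.05 (adjusted p = 6.73e-09). mmcm-1 rose by 0.08 ± 0.03 (adjusted p = 0.0397) and pccb-1 fell by 0.11 ± 0.04 (adjusted p = 0.0174), and pcca-1 was not called (-0.08 ± 0.04, adjusted p = 0.0723). pcca-1 was called with a filter at 5 CPM in 3 libraries (adjusted p = 0.0390) and with only the groups compared (adjusted p = 0.0272). The library-set term (adjusted p = 0.0247) and leaving the first atfs-1 library out of the shared fit (adjusted p = 0.0243) gave that call too. Without these changes of setting, 2 of 8 rose and 5 fell, beside 47.2% of all genes, with medians of -0.19 over the 8 genes and -0.02 over all genes. The pccb-1 call was lost without cco-1 library 3 (adjusted p = 0.124) or cco-1+cbp-1 library 2 or 3 (adjusted p = 0.0623 and 0.0731). That of mmcm-1 was lost without cco-1 library 2 or 3 (adjusted p = 0.258 and 0.0515) or any cco-1+cbp-1 library (adjusted p = 0.0544 to 0.166). In the same comparison the summed intestinal markers were 1589 to 1656 CPM in cco-1 and 741 to 768 in cco-1+cbp-1, and all 4 yolk genes fell with a median of -0.92. Among other markers, 3 of 5 for muscle fell, and of 6 for hypodermis 1 rose and 1 fell. For neurons 3 of 5 rose, for germline 1 of 6 rose and 3 fell, and for sperm 2 of 4 fell. Their part was not tested.

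Adding atfs-1 to cco-1 gave nearly the same acdh-1 level. In cco-1+atfs-1 against cco-1, acdh-1 fell by 2.21 ± 0.12 (adjusted p = 2.03e-11), to 0.216 times its level in cco-1, from 135.7 to 151.4 CPM down to 29.4 to 33.3. ech-6 fell by 0.49 ± 0.03 (adjusted p = 7.19e-15) to 170.3, 160.2 and 164.2 CPM, and hach-1 by 0.29 ± 0.03 (adjusted p = 3.90e-09) to 90.4, 91.1 and 93.5, both below every cco-1 library. alh-8 had 578.8, 565.4 and 584.5 CPM against 615.0, 630.3 and 660.6 in cco-1 and missed the threshold (-0.14 ± 0.06, adjusted p = 0.145). It was called with no filter (adjusted p = 0.0116) and with only the groups compared (adjusted p = 4.45e-05). The library-set term (-0.14, adjusted p = 0.00164) and leaving out the first atfs-1 library (adjusted p = 0.00162) gave the call too. The B12-dependent genes were at 0.04 to 0.07 and not called, except that mmcm-1 passed without the first atfs-1 library (adjusted p = 0.0430). This left 0 of 8 higher and 3 lower, beside 20.4% of all genes, with medians of -0.05 over the 8 genes and 0.00 over all genes. Intestinal markers moved in this comparison in both directions: of 8, ges-1 (-1.86), vha-6 (-0.62) and ifb-2 (-0.47) fell and act-5 (0.54) and elt-2 (0.36) rose, with a median of -0.10. Their summed level was 1589 to 1656 CPM in cco-1 and 1648 to 1672 in cco-1+atfs-1. The yolk genes summed to 26568 to 29166 and 25448 to 28036 CPM, with 1 of 4 higher and 1 lower, and 3 of 4 sperm markers fell. Their part was not tested.

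The cco-1 mixtures differed little from each other in the first 3 shunt genes. In cco-1+cbp-1 against cco-1+atfs-1, acdh-1 was at -0.06 ± 0.13 (adjusted p = 0.745), and the 95% interval of -0.34 to 0.22 still allows a difference of that size either way. ech-6 (-0.06, adjusted p = 0.142) and hach-1 (0.02) were not called either. alh-8 was lower with cbp-1 by 0.30 ± 0.06, pcca-1 by 0.13 ± 0.04 and pccb-1 by 0.16 ± 0.04, and mce-1 was higher by 0.37 ± 0.05 (adjusted p = 6.97e-08). In this comparison 1 of 8 was higher and 3 were lower, beside 44.5% of all genes called. Of the 8 intestinal markers 2 were higher and 5 lower (median -0.75), and all 4 yolk genes were lower (median -0.81); their part was not tested.

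With mrps-5 the 2 added clones parted. In mrps-5+cbp-1 against mrps-5, acdh-1 fell by 1.25 ± 0.11 (adjusted p = 1.38e-08), ech-6 by 0.80 ± 0.03 (adjusted p = 3.81e-22) to 180.7, 172.9 and 169.3 CPM, alh-8 by 0.52 ± 0.06 to 508.9, 516.6 and 463.8, and hach-1 by 0.37 ± 0.03 to 96.4, 95.3 and 98.3. No mrps-5+cbp-1 library reached a mrps-5 library in these genes. The carboxylase subunits fell too, pcca-1 by 0.19 ± 0.04 and pccb-1 by 0.21 ± 0.04, mmcm-1 was at 0.00 ± 0.03, and mce-1 rose by 0.17 ± 0.05 (adjusted p = 0.00690). The mce-1 values were 53.1, 49.2 and 60.9 CPM, and without the third of these libraries the gene was at 0.08 (adjusted p = 0.187). Counting all 8 genes, 1 rose and 6 fell, beside 42.8% of all genes, with medians of -0.29 over the 8 genes and -0.01 over all genes. The intestinal markers summed to 1433 to 1469 CPM in mrps-5 and 643 to 697 in mrps-5+cbp-1, and all 4 yolk genes fell with a median of -1.24. Among other markers, 4 of 5 for muscle and 3 of 6 for hypodermis fell. For neurons 2 of 5 rose, for germline 1 of 6 rose and 3 fell, and for sperm 1 of 4 fell. Their part was not tested.

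In mrps-5+atfs-1 against mrps-5, acdh-1 rose by 0.37 ± 0.11 (adjusted p = 0.0194), from a highest mrps-5 library of 209.2 CPM to a lowest mixture library of 211.6. That call was lost without mrps-5 library 1 or 3 (adjusted p = 0.103 and 0.0678) or mrps-5+atfs-1 library 1 or 3 (adjusted p = 0.112 and 0.0643), and when the fit held only these groups (adjusted p = 0.138). The other shunt genes stayed within their spread, ech-6 at 293.1, 285.7 and 289.8 CPM (-0.06, adjusted p = 0.236), hach-1 at 127.7, 120.7 and 123.1, and alh-8 at 755.4, 708.7 and 668.0. Thus 1 of 8 rose and 0 fell, beside 16.8% of all genes; medians were -0.0003 over the 8 genes and 0.01 over all genes. In the same groups 2 of the 4 yolk genes rose, with a median of 0.13, and their part was not tested. Direct comparison of mrps-5+cbp-1 with mrps-5+atfs-1 gave -1.63 ± 0.11 for acdh-1 (adjusted p = 2.36e-10), -0.73 for ech-6, -0.36 for hach-1, -0.52 for alh-8, -0.22 for pcca-1, -0.23 for pccb-1 and 0.17 for mce-1. There 1 of 8 was higher and 6 were lower, beside 44.6% of all genes, and the mce-1 call (adjusted p = 0.00553) was lost without mrps-5+cbp-1 library 3 (adjusted p = 0.166). Of the 8 intestinal markers 1 was higher and 6 were lower (median -0.56), and all 4 yolk genes were lower (median -1.39); their part was not tested.

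**Figure D3:**
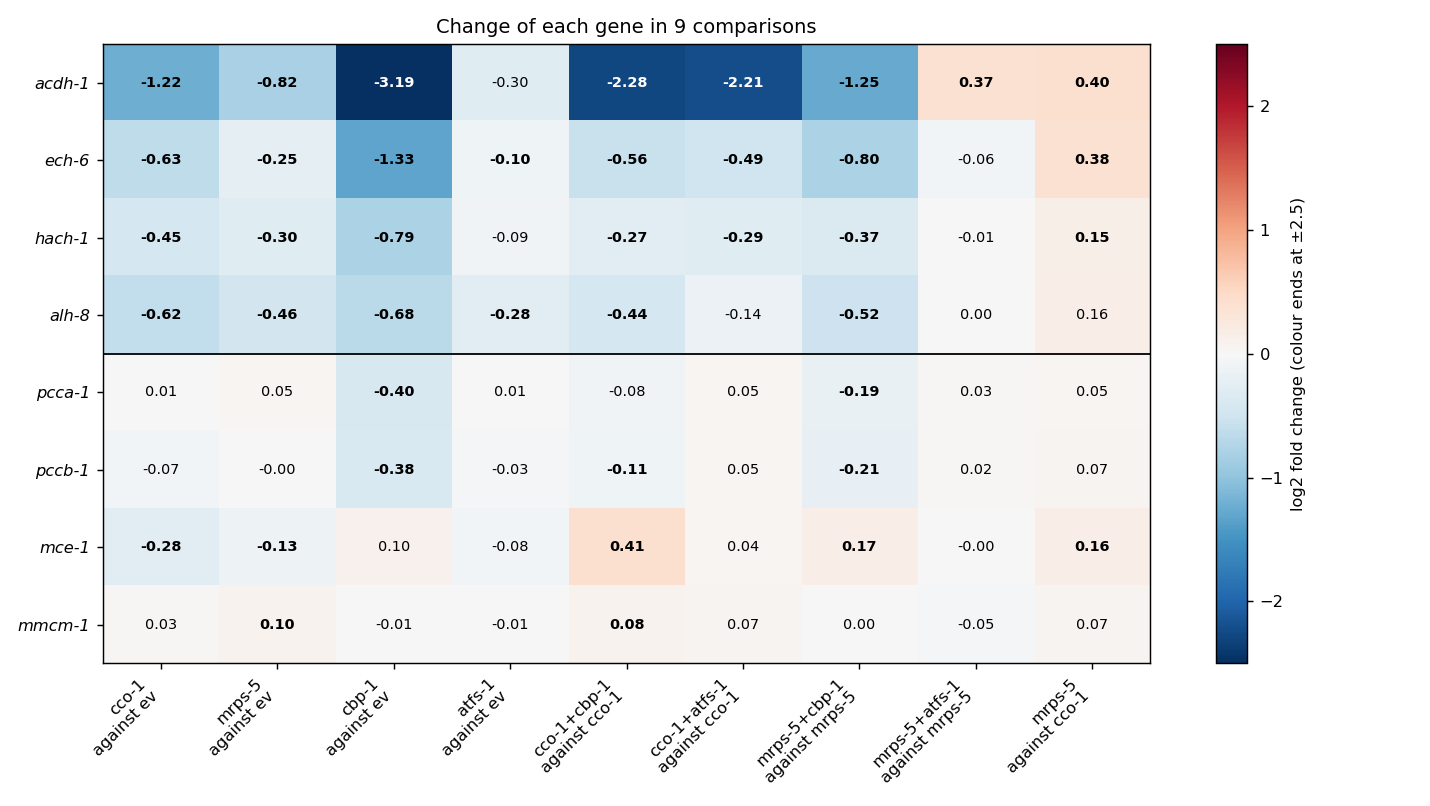
Log2 change of each gene (rows; shunt above, B12-dependent route below) in 9 comparisons (columns), with the value in each cell, in bold where the gene was called; the colour scale ends at 2.5 on either side. The acdh-1 row runs from -3.19 in cbp-1 against ev to 0.40 in mrps-5 against cco-1, mce-1 reaches 0.41 in cco-1+cbp-1 against cco-1, and the mmcm-1 row lies between -0.05 and 0.10.

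Whether the effect of one clone depended on the other was tested as a difference of log2 changes. The effect of atfs-1 on acdh-1 was -2.21 in the cco-1 background and 0.37 in the mrps-5 background, at the same clone share, and these differed by 2.59 ± 0.16 (adjusted p = 1.59e-09). For ech-6 the difference was 0.43 ± 0.05 (adjusted p = 3.34e-08) and for hach-1 0.28 ± 0.05 (adjusted p = 6.38e-05). alh-8 and the B12-dependent genes were not called, so that 3 of 8 were higher and 0 lower in a comparison with 3.49% of all genes called. Of the 4 yolk genes 2 were higher, with a median of 0.20, and of the 8 intestinal markers 3 were higher, with a median of -0.02; their part was not tested. The effect of cbp-1 on acdh-1 was -1.25 with mrps-5 and -2.28 with cco-1, a difference of 1.03 ± 0.17 (adjusted p = 3.49e-04). ech-6 went the opposite way, from -0.56 with cco-1 to -0.80 with mrps-5, a difference of -0.24 ± 0.05 (adjusted p = 9.08e-04), as did mce-1 (-0.24 ± 0.07, adjusted p = 0.0383). The mce-1 call was lost without any cco-1 library, cco-1+cbp-1 library 2 or 3, mrps-5 library 2 or 3, or mrps-5+cbp-1 library 1 or 2 (adjusted p = 0.0637 to 0.191). In this comparison 1 of 8 was higher and 2 were lower, beside 5.49% of all genes.

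The effect of cbp-1 within the cco-1 or mrps-5 groups was also set against its effect on ev, with the limit that the share of the cbp-1 clone alone is not given. acdh-1 fell less in both backgrounds, by a difference of 0.91 ± 0.17 with cco-1 (adjusted p = 3.86e-04) and 1.94 ± 0.16 with mrps-5 (adjusted p = 2.32e-08). The differences were 0.77 ± 0.05 and 0.53 ± 0.05 for ech-6, 0.52 ± 0.05 and 0.43 ± 0.05 for hach-1, 0.32 ± 0.05 and 0.21 ± 0.05 for pcca-1, and 0.26 ± 0.06 and 0.16 ± 0.06 for pccb-1. mce-1 differed with cco-1 (0.31 ± 0.07) and was not called with mrps-5 (0.07 ± 0.07). Thus 6 of 8 genes were called with cco-1, beside 24.9% of all genes, and 5 of 8 with mrps-5, beside 23.6%, all higher. The pccb-1 call with mrps-5 (adjusted p = 0.0260) was lost without ev library 2 or 3, cbp-1 library 1, mrps-5 library 2 or 3 or mrps-5+cbp-1 library 1 or 2 (adjusted p = 0.0553 to 0.120). alh-8 was not called in either (0.24 and 0.16), but other settings called it in both. These were no filter (adjusted p = 4.99e-04 and 0.0465) and only the groups compared (adjusted p = 1.23e-06 and 0.00191). They also included the library-set term (adjusted p = 1.28e-04 and 0.00952) and leaving out the first atfs-1 library (adjusted p = 1.31e-04 and 0.00967). With cco-1, alh-8 was called with RLE scaling (adjusted p = 0.0338), upper-quartile scaling (adjusted p = 0.0339) and DESeq2 (adjusted p = 0.0216) as well. These comparisons share the cbp-1 and ev libraries. In the same groups the yolk genes all had positive differences, with medians of 1.56 and 1.43, whereas of the 8 intestinal markers 2 were higher and 4 lower with cco-1, and 1 was higher and 5 lower with mrps-5. The higher ones were mtl-2 (1.15 with cco-1 and 0.62 with mrps-5) and, with cco-1, ges-1 (0.29). Their part was not tested.

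**Figure D4:**
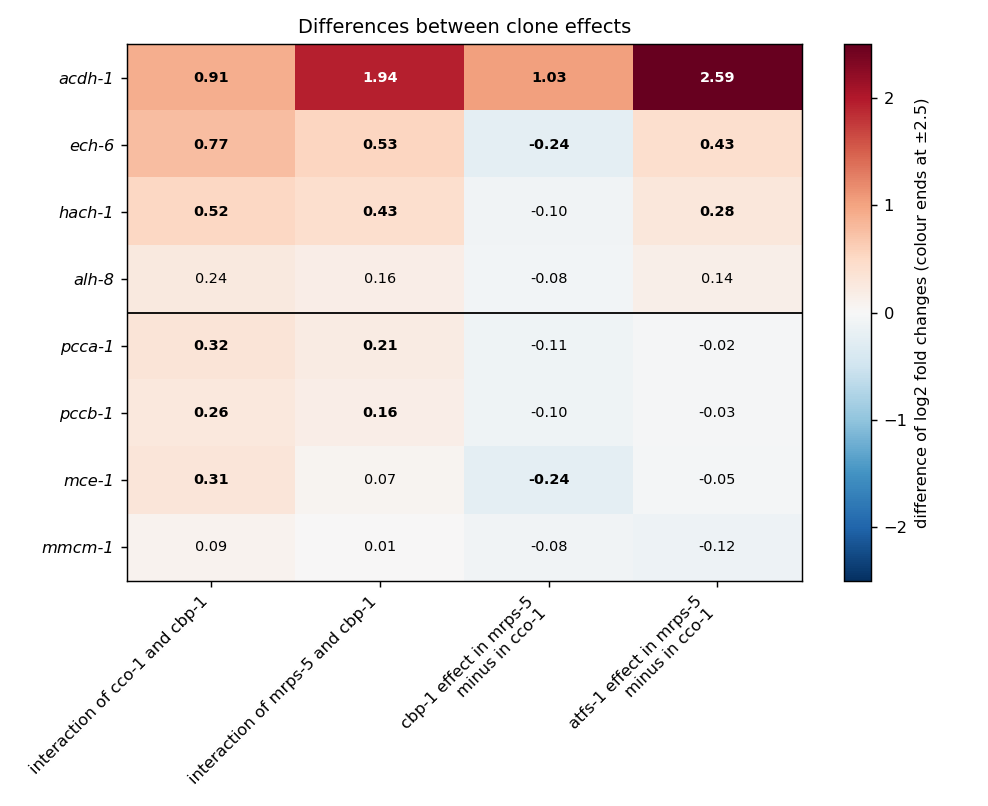
Difference of log2 fold changes for each gene (rows) in 4 tests (columns): the cbp-1 effect with cco-1 and with mrps-5, each minus its effect on ev, and the cbp-1 and atfs-1 effects with mrps-5 minus those with cco-1. Bold cells were called; acdh-1 is called in all 4, from 0.91 to 2.59, and mmcm-1 in none.

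Summed per length, the shunt moved more than the B12-dependent route. The 4 shunt genes summed to 1204 ± 24.1 RPKM in ev, 1039.8 ± 69.4 in atfs-1, 915 ± 39.9 in mrps-5+atfs-1, 894 ± 26.6 in mrps-5 and 748 ± 13.9 in cco-1. They summed to 567 ± 10.5 in cco-1+atfs-1, 565 ± 10.2 in cbp-1, 564 ± 17.5 in mrps-5+cbp-1 and 500.1 ± 4.48 in cco-1+cbp-1, and alh-8 is the most abundant of the 4. These sums carry no set term, and ev shares a library set only with cbp-1 and the first atfs-1 library. Within atfs-1 the sum ran from 999 to 1120 RPKM. There alh-8 had 530 RPKM in the first library and 421 and 408 in the others. The part of the sets in the sums was not tested. The 4 B12-dependent genes summed to 486 ± 10.3 RPKM in ev and 411 ± 8.55 in cbp-1, and to between 454 and 494 in the other groups.

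Over the 9 group means of log2 CPM, the genes whose pattern was most like that of acdh-1 were folt-2, of the folate transporter family (Pearson r = 0.982), C05C10.3 (0.979), nhr-68, a nuclear receptor that activates shunt genes (0.973), hphd-1, the 3-hydroxypropionate dehydrogenase of the shunt (0.971), and F15D4.6 (0.967), among 9614 genes with a mean of at least 5 CPM. ech-6 came at rank 9 (0.962) and hach-1 at rank 14 (0.947), while alh-8 came at rank 371 (0.826). pccb-1 had an r of 0.670, pcca-1 of 0.509, mce-1 of -0.290 and mmcm-1 of -0.432. These values describe 9 group means that share libraries and scaling, and a high r does not need a large change: C05C10.3 stayed between 144 and 203 CPM and F15D4.6 between 6.43 and 7.74. folt-2 moved about as far as acdh-1, from 247 CPM in ev to 30.3 in cbp-1, 103 in cco-1 and 30.4 in cco-1+atfs-1, and it stood at 201 in mrps-5 and 207 in mrps-5+atfs-1. vit-2, a yolk protein gene, had an r of 0.934 at rank 30.

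**Figure D5:**
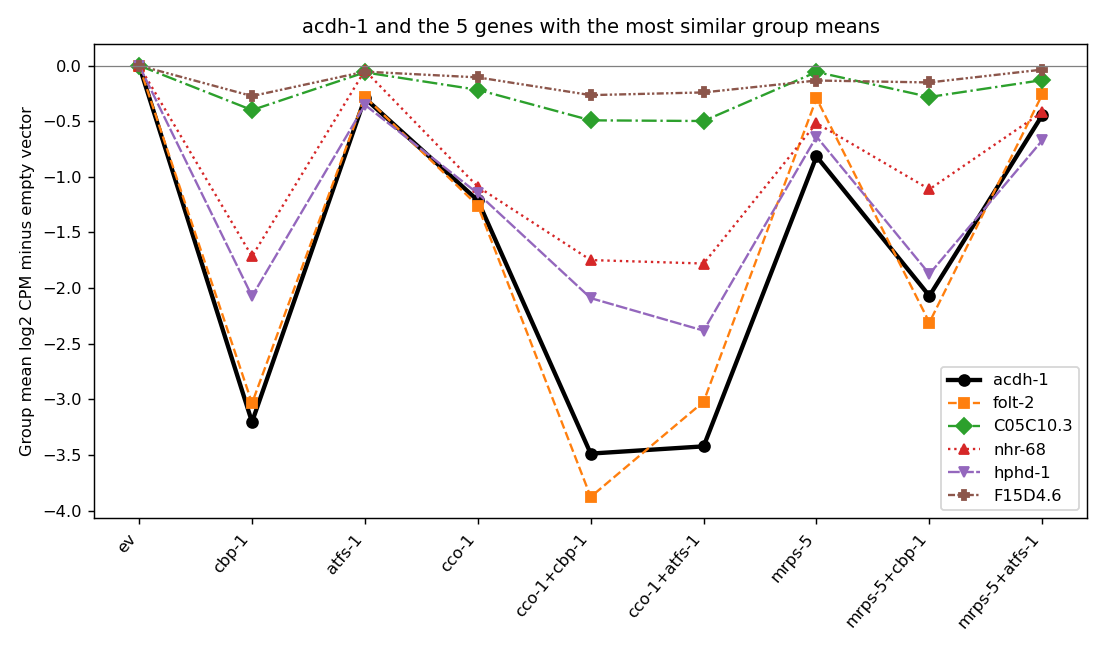
Group mean of log2 CPM minus that of ev for acdh-1 and the 5 genes with the most similar pattern, across the 9 RNAi groups. folt-2 runs close to acdh-1, hphd-1 and nhr-68 follow at smaller size, and C05C10.3 and F15D4.6 stay nearest to 0.

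The shunt gene hphd-1, which acts between hach-1 and alh-8 and is listed in the count table as Y38F1A.6, belonged to a list of 8 further propionate and B12 genes with mmaa-1, mmab-1, cblc-1, mtrr-1, metr-1, pmp-5 and acdh-2. Its level was 233 CPM in ev, 105 in cco-1, 150.1 in mrps-5 and 55.5 in cbp-1. It was 44.8 CPM in cco-1+atfs-1 and 54.8 in cco-1+cbp-1, against 147 in mrps-5+atfs-1 and 63.8 in mrps-5+cbp-1. As with acdh-1, the atfs-1 effect on hphd-1 was -1.23 ± 0.05 with cco-1 (adjusted p = 4.65e-21) and -0.03 with mrps-5 (adjusted p = 0.741), a difference of 1.20 ± 0.07 (adjusted p = 2.62e-15). pmp-5, an ABC transporter gene, fell in cco-1 (-2.54), mrps-5 (-1.70) and cbp-1 (-2.47), all against ev. It rose by 1.23 ± 0.06 in mrps-5+atfs-1 against mrps-5 (adjusted p = 2.12e-20), from 27.9 to 65.6 CPM. acdh-2, a paralog of acdh-1 with group means of 0.857 to 6.57 CPM, fell in cco-1 (-2.37), mrps-5 (-1.04) and cbp-1 (-2.66) against ev. Against mrps-5, acdh-2 fell by 0.64 in mrps-5+cbp-1 and rose by 0.76 in mrps-5+atfs-1.

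By count, 1 of these 8 further genes rose and 5 fell in cco-1 against ev, 0 and 3 in mrps-5, 2 and 5 in cbp-1, and 0 and 2 in atfs-1, where 45.3%, 37.9%, 58.7% and 10.8% of all genes were called. With the library-set term the numbers were 0 and 4 in cco-1, 0 and 4 in mrps-5, and 0 and 0 in atfs-1, where hphd-1 (adjusted p = 0.0635) and pmp-5 (adjusted p = 0.948) were no longer called. In the mixtures against their mitochondrial clone, 3 rose and 2 fell in cco-1+cbp-1, 0 and 1 in cco-1+atfs-1, 2 and 4 in mrps-5+cbp-1, and 3 and 0 in mrps-5+atfs-1. metr-1, the B12-dependent methionine synthase, was among those that rose in cco-1+cbp-1 (0.35 ± 0.04), mrps-5+cbp-1 (0.27 ± 0.04) and mrps-5+atfs-1 (0.17 ± 0.04). Its direction was therefore opposite to that of acdh-1 in both cbp-1 mixtures.

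A list of 6 regulators known to act on acdh-1 or on lipid metabolism held nhr-10, nhr-68, nhr-114, nhr-49, mdt-15 and sbp-1. nhr-68 fell by 1.09 ± 0.07 in cco-1, 0.52 ± 0.07 in mrps-5 and 1.70 ± 0.08 in cbp-1, all against ev (adjusted p = 3.02e-22 in cbp-1), with mean levels of 34.1 CPM in ev, 23.8 in mrps-5 and 10.4 in cbp-1 and libraries at 14.9 to 16.8 in cco-1. Its atfs-1 effect was -0.69 ± 0.08 with cco-1 (adjusted p = 1.64e-08) and 0.10 with mrps-5 (adjusted p = 0.383), a difference of 0.79 ± 0.11 (adjusted p = 2.19e-06). nhr-10, the other receptor that activates shunt genes, had 18.7 to 24.7 CPM over all libraries and an r of -0.045 with acdh-1. It rose in cco-1 and in mrps-5 against ev (both 0.25), calls that were lost with the library-set term (adjusted p = 0.714 and 0.762), and it fell in cco-1+atfs-1 against cco-1 (-0.19, adjusted p = 0.0456). sbp-1, the SREBP homolog, fell in cco-1 (-0.43), mrps-5 (-0.30) and cbp-1 (-0.55) against ev and in both cbp-1 mixtures (-0.35 and -0.44). Over the list, 2 rose and 3 fell in cco-1 and in mrps-5 against ev, 1 and 4 in cbp-1, 1 and 1 in atfs-1, 1 and 2 in cco-1+cbp-1, 0 and 2 in cco-1+atfs-1, 1 and 3 in mrps-5+cbp-1, and 1 and 0 in mrps-5+atfs-1. The shares of all genes called, as given above, were 45.3%, 37.9%, 58.7% and 10.8% in the comparisons with ev and 47.2%, 20.4%, 42.8% and 16.8% in those with the mitochondrial clone, in the same order, and apply to each of these lists. With the library-set term, 0 of the 6 were higher and 4 lower in cco-1, 0 and 3 in mrps-5, and 0 and 0 in atfs-1. mdt-15, a Mediator subunit, turned from a rise in cco-1 and mrps-5 (both 0.32) to a fall with that term (-0.16 and -0.17).

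The branched-chain amino acid pathway, parts of which supply propionyl-CoA, did not follow acdh-1 in the mitochondrial groups. The list used here was not limited to those parts. Of 11 genes, 4 rose and 3 fell in cco-1 against ev and 7 rose and 0 fell in mrps-5. With the library-set term these numbers were 2 and 1, and 3 and 0. All 11 fell in cbp-1 against ev, with a median log2 change of -0.31, and all 11 in mrps-5+cbp-1 against mrps-5, with a median of -0.47, while 10 fell and 1 rose in cco-1+cbp-1. bcat-1, the branched-chain aminotransferase, fell most among the named ones, by 1.68 ± 0.04 in cco-1+cbp-1 and 1.60 ± 0.04 in mrps-5+cbp-1. With atfs-1 added, 0 rose and 9 fell in the cco-1 background (median -0.24) and 1 rose and 7 fell in the mrps-5 background (median -0.17), where acdh-1 rose; in atfs-1 alone 0 rose and 2 fell, and none was called with the library-set term. Here ard-1, a hydroxyacyl-CoA dehydrogenase of the pathway, fell by 0.26 ± 0.03 with cco-1 and 0.27 ± 0.03 with mrps-5.

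Enzymes of the same families as the first shunt steps moved both ways. Among 12 other acyl-CoA dehydrogenases, 7 rose and 4 fell in cbp-1 against ev, acdh-10 rising by 0.69 ± 0.04 and acdh-9 falling by 0.63 ± 0.04. For the remaining comparisons the numbers higher and lower were 3 and 3 in cco-1, 6 and 1 in mrps-5 and 1 and 0 in atfs-1 against ev, and 4 and 5 in cco-1+cbp-1, 0 and 3 in cco-1+atfs-1, 4 and 5 in mrps-5+cbp-1 and 1 and 5 in mrps-5+atfs-1 against the mitochondrial clone. The library-set term left 1 and 1 in cco-1, 1 and 1 in mrps-5 and 0 and 0 in atfs-1. Among 9 other enoyl-CoA hydratase genes, 4 rose and 5 fell in cbp-1 against ev, ech-8 rising by 0.85 ± 0.07 and ech-7 falling by 1.42 ± 0.07. The corresponding numbers were 4 and 2 in cco-1, 3 and 1 in mrps-5 and 0 and 2 in atfs-1 against ev, and 3 and 4 in cco-1+cbp-1, 1 and 4 in cco-1+atfs-1, 2 and 4 in mrps-5+cbp-1 and 1 and 3 in mrps-5+atfs-1. With the library-set term, 2 and 1 were left in cco-1, 1 and 0 in mrps-5 and 0 and 0 in atfs-1. ech-8 fell in both atfs-1 mixtures, by 0.87 ± 0.08 with cco-1 and 0.51 ± 0.08 with mrps-5, in the second of which ech-6 was not called.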

How the data were processed

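Poly(A) RNA of 27 whole-worm libraries, 3 for each of 9 RNAi feeding groups, was sequenced. Per the submitters' processing notes, the aligner was STAR 2.6.0a, the counter HTSeq 0.10.0 and the genome WBcel235. The sources used here give neither trimming nor the strand setting. The deposited values are raw counts per gene, not normalized by the authors. The table's summary lines (8.71% to 17.0% of reads) were left out. The gene annotation for positions and lengths was WBcel235, and 43719 of 46738 IDs matched a separate list of gene names. Intervals and SDs cover these libraries only.

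In R 4.3.3 with edgeR 4.0.16, genes were kept by filterByExpr (minimum count 10), which left 16435. TMM scaling, robust quasi-likelihood fits with 1 coefficient per group over all libraries and quasi-likelihood tests gave log2 fold changes and p-values, Benjamini-Hochberg adjusted over all genes tested in each of 15 comparisons, and called below 0.05. The step was run on simulated counts that hold no shift between library sets, so that run cannot speak to the sets. The test itself gives no SE, so SE was taken as the absolute log2 fold change divided by the square root of the F statistic. The 95% intervals used that SE with a t quantile. CPM were TMM-scaled, RPKM divided CPM by summed exon length, and log2 CPM used a prior count of 1. The common biological coefficient of variation was 4.18%, and replicates differed by more than counting noise (chi-square per degree of freedom 1.45 to 29.9).

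Library sets came from 458 genes that differ by over 0.5 (log2) between the first atfs-1 library and the other atfs-1 libraries. The set term is estimated from these same libraries, as no other group is split between the sets. Alternatives were RLE and upper-quartile scaling, no filter, a filter at 5 CPM in 3 libraries, DESeq2 1.42.0, fits of only the groups compared, a replicate block, a set term, and leaving out each library.

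The text names the 8 members, up to 3 called genes with the smallest adjusted p per other list and comparison, and the 5 genes most like acdh-1 in pattern; hphd-1, pmp-5, nhr-68, nhr-10, mdt-15 and acdh-2 are followed across comparisons. The members and lists were chosen with earlier results of these data known.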

Additional observations from a re-analysis of the deposited data

Results flagged for a closer look

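Effects of one clone that differed with the other clone are collected here as differences of log2 changes from edgeR's quasi-likelihood test, without explanation. The cbp-1 effect with cco-1 minus that on ev was 0.91 for acdh-1, 0.77 for ech-6, 0.52 for hach-1, 0.32 for pcca-1, 0.26 for pccb-1 and 0.31 for mce-1. The same difference with mrps-5 was 1.94 for acdh-1, 0.53 for ech-6, 0.43 for hach-1, 0.21 for pcca-1 and 0.16 for pccb-1. The cbp-1 effect with mrps-5 minus that with cco-1 was 1.03 for acdh-1, -0.24 for ech-6 and -0.24 for mce-1. The atfs-1 effect with mrps-5 minus that with cco-1 was 2.59 for acdh-1, 0.43 for ech-6 and 0.28 for hach-1, although the atfs-1 transcript was not lower in either mixture than in its mitochondrial clone.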

How the results depend on the processing

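Of 69 changes of the 8 genes that were called, 54 were called under every alternative run and 68 kept their direction; the exception was mce-1 in mrps-5 against ev, at 0.0397 with the library-set term. The number of the 8 genes called in atfs-1 against ev, 2 as reported, was 1 with upper-quartile scaling, 4 with DESeq2, 4 with the 5 CPM filter, 0 with only the groups compared, 0 with the library-set term and 0 to 4 on leaving out 1 library. In mrps-5+atfs-1 against mrps-5, 1 as reported, it was 0 with only the groups compared and 0 to 1 on leaving out 1 library. With the library-set term it went from 6 to 3 in mrps-5 against ev and from 3 to 5 in cco-1+atfs-1 against cco-1, where leaving out 1 library, the first of atfs-1 included, gave 3 to 5. Leaving out 1 library gave 2 to 5 in mrps-5 against cco-1, 4 as reported. Over all genes tested, the library-set term took the number called from 7449 to 2691 in cco-1 against ev, from 6225 to 1602 in mrps-5 against ev and from 1772 to 54 in atfs-1 against ev. In the last, fitting only the groups compared gave 28, and leaving out 1 library gave 155 to 4874.

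Replicate numbers did not pair the samples: the correlation of deviations between same-numbered libraries ran from -0.0759 to 0.0907. With the number as a replicate block, acdh-1 in cco-1 against ev was at -1.21, and 2 calls were lost, mce-1 in mrps-5 against ev (adjusted p = 0.0512) and ech-6 in atfs-1 against ev (adjusted p = 0.0554), which left 1 gene called in atfs-1 against ev. The fit without the first atfs-1 library for comparisons that do not use it was chosen after seeing the data. With 3 libraries a group and 1 atfs-1 library in the first set, the atfs-1 comparison with ev is the least resolved. The cause of each shift was not tested.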
